A study of Homo sapiens with 4 samples.

Results

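The transcription factors that direct myeloid differentiation were followed through 4 treatments of MOLM13, an established human line of acute myeloid leukaemia (AML) driven by an MLL::AF9 fusion. The 10 factors were SPI1, CEBPA, CEBPB, CEBPD, CEBPE, GFI1, IRF8, MYB, RUNX1 and RUNX2, taken by matching the listed symbols to Ensembl identifiers in GENCODE, and all 10 were found among the 58735 genes of each table. Cells had 12 h of vehicle (DMSO), of either agent alone (SD70 or MI-503), or of both agents (the combination), and each treatment gave 1 RNA-seq library. SD70 is known as a KDM4C inhibitor, KDM4C being a histone demethylase, while MI-503 is a menin inhibitor that keeps menin off MLL proteins. The stated question was how the 2 agents act in synergy. All 4 groups share the same cell line and the same time point; doses and the number of cultures are not given in the sources used here. All values describe this 1 line.

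Myeloid cells are made by a small circuit of DNA-binding proteins. PU.1, encoded by SPI1, and the C/EBP proteins open the genes of granulocytes and monocytes, IRF8 turns progenitors towards monocytes and dendritic cells, GFI1 is a repressor that favours granulocytes, and MYB keeps progenitors dividing. The RUNX proteins bind DNA with the partner CBFB, and RUNX1 is a frequent target of mutations and fusions in acute myeloid leukaemia. In cells with an MLL fusion, some of these factors, MYB among them, help to hold the leukaemia at the stage of an immature myeloid cell.

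The values are FPKM, fragments per kilobase of exon scaled to a library size, and whole reads were recovered from them. The size behind the FPKM was not the read total. It was 15109754 in DMSO, which had 15550915 reads, and 15470737 in SD70, which had 14695753 reads. Ratios of SD70 to DMSO are therefore lower than scaling by read totals would give. The libraries held between 14695753 and 15937390 reads. Intervals given with a ratio of FPKM are exact 95% intervals conditional on the reads of both values; they cover counting error only and compare libraries, since no treatment had a replicate. Mitochondrial ribosomal RNA took a larger share of reads in both libraries with SD70 (1.5% and 1.43%, the latter with MI-503) than in DMSO (0.853%) or MI-503 alone (0.928%); its part in the differences with SD70 was not tested. The label of the line was compared with marker genes. CD33, a myeloid surface antigen, stood at 25.2, 27.2, 29.01 and 27.5 FPKM; values listed in fours follow the order DMSO, SD70, MI-503, combination throughout. All 6 AML markers passed the minimum described below, whereas CD34 and KIT had at most 12 reads in any library. The summed level of 5 T cell markers lay between 9.975 and 14.6 FPKM, nearly all of it TRAC, with CD3E and CD2 at 0 in every library. B cell markers summed to between 1.06 and 1.88 FPKM with MS4A1 at 0, erythroid markers to between 0.0 and 0.101 FPKM with HBB at 0, and megakaryocyte markers to between 2.47 and 3.16 FPKM with PF4 at 0. Epithelial markers, of which KRT18 gave most, summed to 1.04, 2.72, 1.83 and 2.63 FPKM with EPCAM at 0, and fibroblast markers to between 0.0404 and 0.252 FPKM with DCN at 0.

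The factors were not silent in the untreated leukaemia, and their order by level changed little. In DMSO, CEBPA, SPI1, MYB and GFI1 were the highest 4 and CEBPE the lowest, and those 5 kept these places in every library. CEBPA stood at percentile 97.7 of measured protein-coding genes in DMSO and at 98.9 in SD70, while CEBPE stood at 6.7 and 12.3. Between the extremes, the order in MI-503 was that of DMSO, and the order in the combination was that of SD70. IRF8 lay above CEBPD in DMSO and MI-503 and below it in SD70 and the combination, and RUNX1 lay above CEBPB and RUNX2 in the first pair and below both in the second. In the plot of levels, the factors spread over about the same range in each library. With 1 library per treatment, the spread by which neighbours in this order might differ is not known. The order also rests on the exon length by which the reads of each gene were divided. Together the 10 factors took 0.203%, 0.22%, 0.226% and 0.225% of reads.

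**Figure D1:**
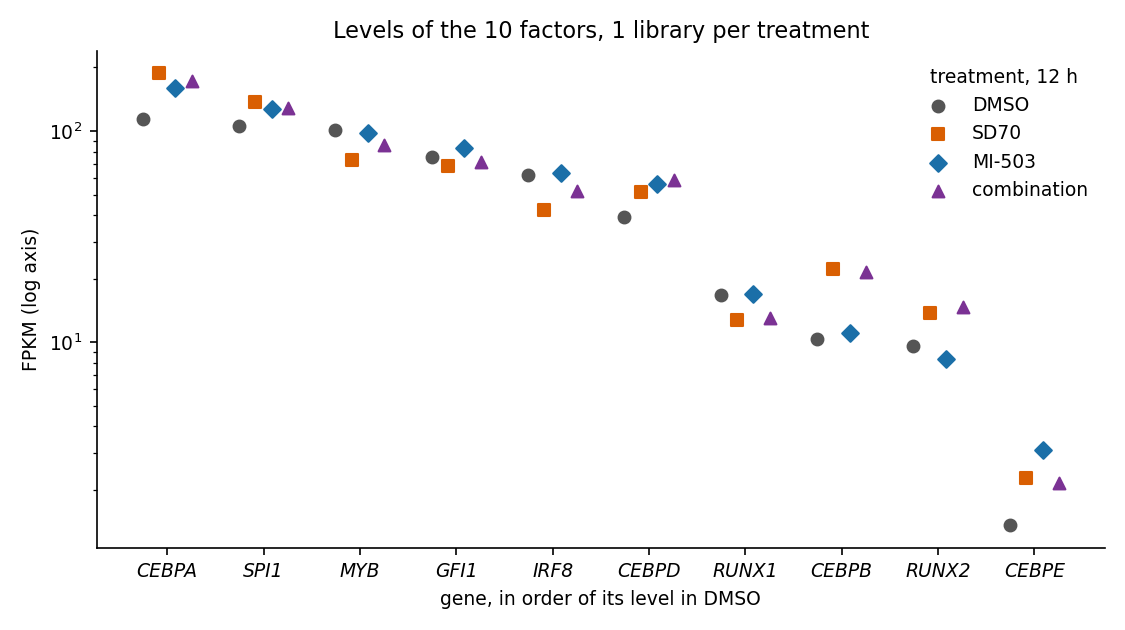
FPKM on a log axis of each of the 10 factors, with 1 point per library and the genes in order of their level in DMSO. CEBPA is highest in each library, at 114, 188, 161 and 173 FPKM, and CEBPE is lowest, between 1.36 and 3.09 FPKM.

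The C/EBP proteins are leucine zipper factors that bind as dimers, and all 4 of those followed here were higher in each treated library than in DMSO. CEBPA, the factor that starts the granulocyte programme, stood at 114 FPKM in DMSO, 188 in SD70, 161 in MI-503 and 173 in the combination. DMSO was thus the lowest library and the combination lay between the single agents. The ratio to DMSO was 1.65 (1.59 to 1.71) for SD70, 1.41 (1.36 to 1.46) for MI-503 and 1.52 (1.47 to 1.58) for the combination. When 1 agent was already present, the other added little: the ratio of the combination was 1.08 (1.04 to 1.12) to MI-503 and 0.925 (0.895 to 0.955) to SD70.

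CEBPB, which drives emergency granulopoiesis and macrophage genes, separated the libraries by SD70. It stood at 10.4 FPKM in DMSO and 11.04 in MI-503, and at 22.2 in SD70 and 21.5 in the combination. Libraries with SD70 therefore lay about 2-fold above those without it, at a ratio of 2.14 (1.87 to 2.46) to DMSO and of 1.95 (1.71 to 2.23) to MI-503. MI-503 gave ratios whose intervals held 1, at 1.06 (0.908 to 1.24) to DMSO and 0.968 (0.867 to 1.08) to SD70. Within protein-coding genes CEBPB moved from percentile 57.2 in DMSO to 84.1 in SD70 and 82.8 in the combination. Its antisense neighbour CEBPB-AS1, which overlaps it, had 6, 11, 4 and 5 reads against 307, 673, 337 and 651 for CEBPB.

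CEBPD, an acute-phase member of the family induced by cytokines, was at 39.4, 51.4, 56.3 and 58.9 FPKM, lowest in DMSO and highest in the combination. It was the C/EBP gene with the highest level relative to SD70 when MI-503 was added, at a ratio of 1.15 (1.07 to 1.22), and MI-503 against DMSO gave 1.43 (1.33 to 1.54). CEBPE, needed for the secondary granules of neutrophils, was at 1.36, 2.29, 3.09 and 2.16 FPKM, on 32, 55, 75 and 52 reads. MI-503 was its highest library, at a ratio to DMSO of 2.27 (1.48 to 3.55), and the other treated libraries lay near each other at 1.68 (1.07 to 2.68) and 1.59 (1.003 to 2.55). The genes of secondary granules that depend on CEBPE were at or near 0: LTF had 0, 0, 1 and 0 reads, CAMP 0, 5, 0 and 7, LCN2 0, 6, 1 and 0, and MMP8 none.

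Counted with CEBPG, a short family member without its own activation domain, the summed C/EBP level was 191 FPKM in DMSO, 286 in SD70, 253 in MI-503 and 279 in the combination. CEBPG itself was lower in each treated library, at 26.1, 22.3, 21.95 and 23.4 FPKM, so that its share of the family sum went from 13.6% in DMSO to 7.81%, 8.67% and 8.37%. CEBPA held 59.6%, 65.6%, 63.5% and 62.1% of the sum. CEBPB held 5.43% and 4.36% in the libraries without SD70 and 7.78% and 7.7% in those with it.

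A promoter window of CEBPB is shown because the gene stood apart by SD70. The sequence is RefSeq's for GRCh38.p14, chr20:50190580-50190879 on the + strand, from 250 bases before to 50 after the start site. Capitals mark its only match to any of the 7 motifs searched, the string TAACNG (MYB), at -23 from the start site. TAACNG occurs in 20.8% of the 35116 RefSeq windows of this length. In these letters no match was found for the C/EBP string TTGCNNAA on either strand. The other CEBPB window, at chr20:50190333-50190632, held none of the 7 motifs.
CEBPB: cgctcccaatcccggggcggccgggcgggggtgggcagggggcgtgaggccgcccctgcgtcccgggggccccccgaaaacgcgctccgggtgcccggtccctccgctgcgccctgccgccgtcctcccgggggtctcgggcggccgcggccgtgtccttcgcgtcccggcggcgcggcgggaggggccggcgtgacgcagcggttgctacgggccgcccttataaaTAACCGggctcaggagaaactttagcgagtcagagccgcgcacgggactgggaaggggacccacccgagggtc

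SPI1 is the ETS factor at the centre of the circuit, needed for both monocytes and granulocytes. It stood at 106, 137, 127 and 129 FPKM, with DMSO lowest and the treated libraries close to each other. The ratio to DMSO was 1.29 (1.24 to 1.35) for SD70, 1.2 (1.15 to 1.26) for MI-503 and 1.22 (1.16 to 1.27) for the combination. Adding SD70 to MI-503 gave 1.015 (0.972 to 1.06), an interval that holds 1 as deposited but not after the same-total rescaling (1.075, 1.03 to 1.12), and adding MI-503 to SD70 gave 0.943 (0.903 to 0.984). SPI1 therefore differed between vehicle and treatment more than among treatments, as did CEBPA.

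GFI1, the zinc finger repressor, and IRF8 act against each other in the choice between granulocyte and monocyte. GFI1 stood at 75.2, 68.7, 83.3 and 71.6 FPKM and varied least of the 10 against DMSO in SD70 and the combination, with ratios of 0.913 (0.871 to 0.956) and 0.952 (0.909 to 0.996). Once the libraries were rescaled to 1 FPKM total these ratios were 0.984 (0.940 to 1.03) and 0.991 (0.946 to 1.04), so neither GFI1 difference held. IRF8 stood at 62.1, 42.2, 63.3 and 51.9 FPKM, with both SD70 libraries below both others. Its ratio was 0.679 (0.65 to 0.71) for SD70 to DMSO and 0.821 (0.788 to 0.855) for the combination to MI-503. MI-503 alone gave 1.02 (0.979 to 1.06), whereas MI-503 added to SD70 gave 1.23 (1.17 to 1.29). Within each library the ratio of GFI1 to IRF8 was 1.21, 1.63, 1.32 and 1.38, highest in SD70.

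Among the 3 RefSeq promoters of GFI1, the one at chr1:92486050-92486349 held the PU.1 string AGGAAGT at -60 from the start site, TTGCNNAA (C/EBP) at -142 and the RUNX string TGTGGT at -47, and the others held none of the motifs. A promoter window of IRF8 is printed because IRF8 was the factor with the lowest ratio for SD70. It lies at chr16:85902580-85902879 on the + strand of GRCh38.p14, and capitals mark the single TGTGGT string, at -134 from the start site. A second IRF8 window held TAACNG at -78. Both windows lie inside the gene, which starts at 85898803 in GENCODE, and no window at that start was searched.
IRF8: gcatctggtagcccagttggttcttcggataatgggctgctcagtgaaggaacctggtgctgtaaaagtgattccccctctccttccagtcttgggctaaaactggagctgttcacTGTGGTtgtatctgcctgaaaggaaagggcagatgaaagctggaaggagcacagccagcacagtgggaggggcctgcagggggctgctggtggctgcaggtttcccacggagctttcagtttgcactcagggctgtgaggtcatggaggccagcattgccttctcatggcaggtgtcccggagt

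MYB, a progenitor factor whose loss lets myeloid cells mature, was at 101.2, 72.8, 98.2 and 85.8 FPKM. Both SD70 libraries lay below both libraries without it. The ratio was 0.719 (0.696 to 0.743) for SD70 to DMSO and 0.873 (0.846 to 0.901) for the combination to MI-503. MI-503 alone gave 0.970 (0.941 to 1.0), an interval that reaches 1 (0.954, 0.926 to 0.984, after rescaling), and MI-503 added to SD70 gave 1.18 (1.14 to 1.22). The ratios of CEBPA and of SPI1 to MYB within a library were lowest in DMSO and highest in SD70: CEBPA to MYB was 1.13 (1.09 to 1.17) in DMSO, 2.58 (2.49 to 2.66) in SD70, 1.64 (1.58 to 1.69) in MI-503 and 2.02 (1.957 to 2.09) in the combination. SPI1 to MYB was 1.045, 1.88, 1.29 and 1.502. MYB-AS1, an antisense gene inside the MYB locus, had 26, 19, 29 and 30 reads against 8400, 6184, 8421 and 7286 for MYB.

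RUNX1 and RUNX2 bind the same DNA letters and moved apart with SD70. RUNX1, the core-binding factor of blood stem cells, stood at 16.7, 12.7, 16.9 and 13.0 FPKM. RUNX2, known for bone formation and also expressed in myeloid and dendritic cells, stood at 9.65, 13.7, 8.3 and 14.7 FPKM. Neither gene had a library with SD70 inside the range of the libraries without it. The ratio for SD70 was 0.763 (0.727 to 0.8) to DMSO and 0.768 (0.733 to 0.805) to MI-503 for RUNX1. It was 1.42 (1.32 to 1.53) and 1.77 (1.64 to 1.91) for RUNX2. RUNX1 hardly differed with MI-503, at 1.01 (0.97 to 1.06) to DMSO and 1.02 (0.97 to 1.07) to SD70, and in both pairs its side of 1 changed once every library was given an equal FPKM total.

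The makeup of the RUNX family differed accordingly. RUNX2 to RUNX1 was 0.578 (0.541 to 0.617) in DMSO and 0.49 (0.458 to 0.525) in MI-503, and 1.08 (1.01 to 1.14) in SD70 and 1.13 (1.07 to 1.2) in the combination. Ratios and shares between genes rest on the exon length dividing the reads, 15574 bases for RUNX1 and 8192 for RUNX2. By reads RUNX1 stayed above RUNX2 in SD70 (3069 against 1738) and in the combination (3130 against 1860). The side of 1 thus depends on these lengths, while the change of the ratio between libraries does not. RUNX3, the third family member, was at 9.57, 15.98, 10.75 and 14.5 FPKM. RUNX1 held 46.5% and 47.0% of the summed RUNX level in DMSO and MI-503, and 30.0% and 30.8% in SD70 and the combination. CBFB, the partner that all RUNX proteins need, was lower in each treated library, at 33.7, 21.0, 26.1 and 20.1 FPKM.

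A promoter window of each gene is printed because their levels went in opposite directions. Both are RefSeq sequences of GRCh38.p14, RUNX2 at chr6:45328080-45328379 on the + strand and RUNX1 at chr21:34888650-34888949 on the - strand. Capitals mark motif matches on either strand. RUNX2 held the RUNX string TGTGGT 4 times, each read on the opposite strand as ACCACA, at -191, -87, 17 and 25 from the start site, and it held TTGCNNAA once, at -55. Of 35116 promoter windows of this length, 13.1% held TGTGGT at least once and 5 held it at least 4 times. The RUNX1 window and the second RUNX2 window, at chr6:45422025-45422324, held none of the 7 motifs. The printed windows are not alike in place. That of RUNX2 spans the start of its gene in GENCODE, at 45328157. That of RUNX1 lies inside its gene, which starts at 36004667 on the - strand, and no window at that start was searched.
RUNX2: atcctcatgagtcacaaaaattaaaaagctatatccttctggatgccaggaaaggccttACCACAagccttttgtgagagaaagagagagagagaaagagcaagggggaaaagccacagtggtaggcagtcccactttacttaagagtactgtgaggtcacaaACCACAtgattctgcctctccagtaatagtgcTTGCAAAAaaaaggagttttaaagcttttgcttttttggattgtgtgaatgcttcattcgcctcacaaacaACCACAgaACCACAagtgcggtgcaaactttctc
RUNX1: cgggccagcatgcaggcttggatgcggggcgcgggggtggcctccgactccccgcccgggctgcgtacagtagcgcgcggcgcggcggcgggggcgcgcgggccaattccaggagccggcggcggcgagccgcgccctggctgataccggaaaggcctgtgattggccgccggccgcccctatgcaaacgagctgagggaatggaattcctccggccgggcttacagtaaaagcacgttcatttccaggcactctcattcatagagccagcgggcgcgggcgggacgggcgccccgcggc

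**Figure D2:**
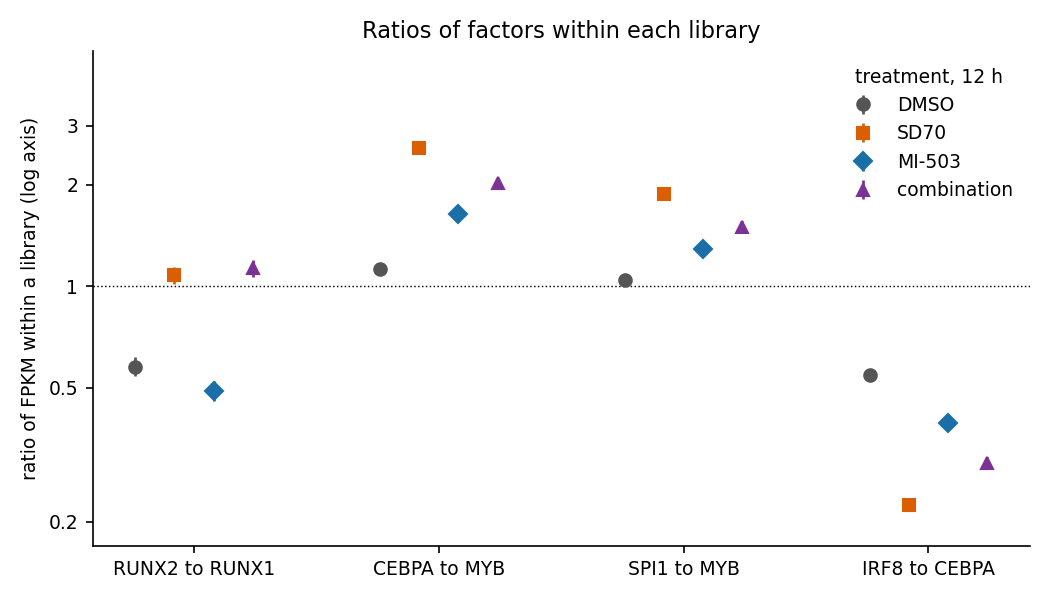
Ratio of the FPKM of 2 factors within each library, on a log axis, with exact 95% counting intervals as bars, which are often smaller than the symbol. The side of 1 depends on the exon lengths of the 2 genes, while the change of a ratio between libraries does not. RUNX2 to RUNX1 lies below 1 in DMSO and MI-503 (0.578 and 0.49) and above 1 in SD70 and the combination (1.08 and 1.13), and CEBPA to MYB is lowest in DMSO and highest in SD70.

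Set against all genes, the differences of these factors were moderate. The factors were chosen with earlier results of these data known, so counts beside all genes are descriptions. A gene was counted as different where its log2(FPKM + 1) differed by a fold of at least 2 among the 12296 genes whose mean reached 1 FPKM, a minimum that all 10 factors passed. Between SD70 and DMSO, 1 of 10 factors (CEBPB) passed, against 12.4% of all genes; between MI-503 and DMSO 0 of 10 did, against 2.16%. For the combination the count was 0 against DMSO (8.73% of all genes), 0 against SD70 (1.8%) and 0 against MI-503 (4.38%). At a lower fold of 1.5, a value chosen after the data were seen, CEBPA and CEBPB passed for SD70 against DMSO (33.4% of all genes) and for the combination against DMSO (27.9%). CEBPE passed for MI-503 (6.91%), CEBPB and RUNX2 passed for the combination against MI-503 (16.8%), and none passed for the combination against SD70 (4.76%).

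The median log2 fold of the factors was 0.37 for SD70 against DMSO, beside -0.07 for all genes (0.02 or 0.03 under either rescaling of the libraries), and 0.35 beside -0.06 for the combination against DMSO. The rescaled values in brackets are those of all genes only. Rescaling raised the factors as well. At the same FPKM total the middle factors, SPI1 and CEBPD, went from 0.367 and 0.376 to 0.475 and 0.483 for SD70 against DMSO. For MI-503 against DMSO it was 0.11 beside -0.03. In size the factors resembled other genes, with a median absolute log2 fold of 0.47 beside 0.39 for SD70 and 0.17 beside 0.15 for MI-503. For the combination the median was 0.04 beside 0.01 against SD70 and -0.09 beside -0.04 against MI-503. These comparisons share libraries, DMSO among them.

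An agent's effect can be read in 2 pairs that share no library, without and with the other agent. For SD70, 9 of 10 factors had the same direction in both pairs, CEBPE being the exception, beside 82.0% of all genes. For MI-503, 4 of 10 did (CEBPD, GFI1, IRF8 and RUNX1), beside 43.4% of all genes. In the plot of ratios, CEBPB, RUNX2, RUNX1, IRF8 and MYB keep their side of 1 under SD70 with intervals that leave out 1 in both pairs, as do CEBPA and GFI1. After either rescaling GFI1 no longer did, while SPI1 and CEBPD then did. For MI-503, CEBPD alone does so, as deposited and after either rescaling.

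**Figure D3:**
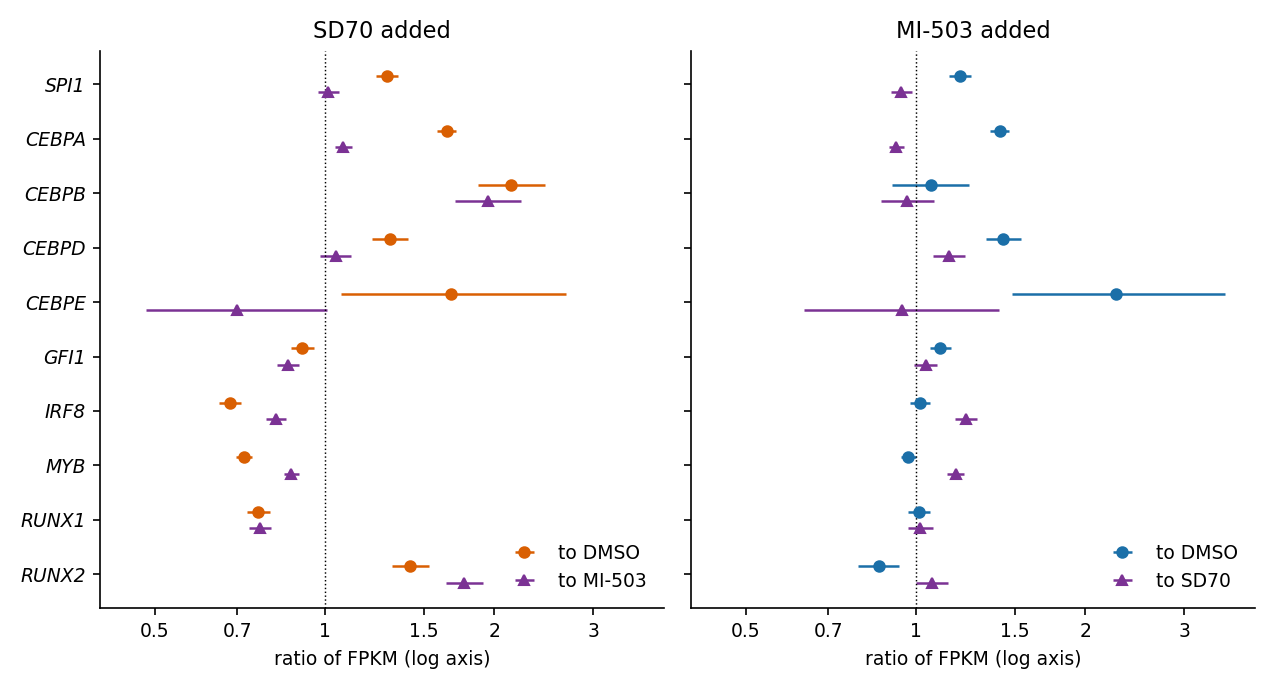
Ratio of FPKM between libraries on a log axis, with exact 95% counting intervals, for SD70 added to DMSO or to MI-503 (left) and MI-503 added to DMSO or to SD70 (right). CEBPB lies near 2 in both SD70 pairs (2.14 and 1.95), RUNX1 lies at 0.763 and 0.768, and CEBPE has the widest intervals.

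The 4 libraries also allow an additive fit, in which limma sets the 2 libraries with an agent against the 2 without it. Its only residual degree of freedom is the departure from additivity, and its p-values measure no spread between cultures. In this limma fit CEBPB rose with SD70 by 0.97 ± 0.12 SE on the log2 scale (adjusted p = 0.0224), and RUNX2 rose by 0.61 ± 0.135 SE (adjusted p = 0.0355). That is 2 of 10 factors, beside 7.86% of all genes rising, and 0 of 10 fell, beside 14.7% of all genes. IRF8 (-0.41 ± 0.13 SE, adjusted p = 0.0705), RUNX1 (-0.36 ± 0.12 SE, adjusted p = 0.0841), MYB (-0.33 ± 0.12 SE, adjusted p = 0.105) and CEBPA (0.41 ± 0.16 SE, adjusted p = 0.125) did not pass by limma over all genes. For MI-503 limma called 0 factors and 0.0% of all genes, with 1 factor (CEBPD) and 401 genes at an unadjusted p under 0.05, and limma-voom on reads called 0 factors, with 8 genes under the library sizes behind the FPKM and 0 under TMM library sizes. No call was made for SD70 when the trend was left out or no filter was applied, so the calls of CEBPB and RUNX2 rest on those settings. For SD70, limma-voom on reads called 6 factors under the library sizes behind the FPKM (CEBPB, RUNX2, CEBPA, IRF8, MYB and RUNX1) and 3 under TMM library sizes (CEBPB, RUNX2 and CEBPA).

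The combination departed from the product of the single-agent ratios in both directions. The departure is the log2 of the combination less those of SD70 and MI-503 plus that of DMSO, on log2(FPKM + 1), and it has no test. It was below 0 for CEBPE (-0.85), CEBPA (-0.60), SPI1 (-0.345) and CEBPD (-0.31), genes that were higher with each single agent than in DMSO. The same DMSO library enters both by arithmetic: a low DMSO value raises both single-agent ratios and lowers the departure. Whether that happened here was not tested. For CEBPA the product of the single-agent ratios was 2.32 and the measured ratio 1.52, and for SPI1 these were 1.55 and 1.22. It was above 0 for RUNX2 (0.29), MYB (0.28) and IRF8 (0.27); the product for IRF8 was 0.692 and the measured ratio 0.836. CEBPB (-0.13), GFI1 (-0.08) and RUNX1 (0.01) lay within 2 counting SE of 0 as deposited. At the same FPKM total GFI1 stood at -0.111 with a counting SE of 0.047, past 2 SE, and RUNX1 at -0.016. The median over the 10 factors was -0.10, beside 0.04 over all genes.

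Other transcription factors of blood cells, in 7 lists of 56 genes, gave a wider view. The lists were chosen with earlier results of these data known, so their counts are descriptions. Of the 56, 41 passed the minimum and 4 were at 0 in all libraries. With SD70, 6 of the 41 rose and 2 fell in the additive fit, beside 7.86% and 14.7% of all genes; the fit for MI-503 called 0.0% of all genes. Their median log2 fold was 0.10 for SD70 against DMSO and 0.07 for MI-503 against DMSO. In the C/EBP and Tribbles list, DDIT3, a stress-induced C/EBP partner, rose (2.84, 6.03, 2.06 and 7.02 FPKM, limma adjusted p = 0.0226). CEBPZ fell (29.1, 12.4, 24.5 and 15.5 FPKM, limma adjusted p = 0.0277). Neither DDIT3 nor CEBPZ was counted in the C/EBP sum above. TRIB1, whose protein brings C/EBPα to degradation, was at 7.36, 10.2, 7.695 and 9.92 FPKM. Among 6 measured IRF genes, IRF7, a driver of type I interferon, rose (4.835, 10.45, 4.68 and 9.74 FPKM, adjusted p = 0.0224), while IRF5 stood at 10.5, 16.5, 13.5 and 15.4 FPKM and IRF9 at 0.436, 1.57, 1.08 and 1.65 FPKM.

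MYBL2, the MYB paralog of dividing cells, fell with SD70 (102, 46.4, 96.0 and 51.2 FPKM, limma adjusted p = 0.0224), and MYBL1 was at 1.17, 1.26, 1.07 and 1.13 FPKM. Among 6 measured RUNX partners and paralogs, RUNX3 (adjusted p = 0.0445) and the corepressor gene CBFA2T2 rose (2.47, 4.84, 2.68 and 4.45 FPKM, adjusted p = 0.0326), and TLE3, another corepressor, was at 4.52, 8.05, 5.51 and 7.14 FPKM. None of 6 measured ETS genes passed; ELF4 was at 21.3, 33.7, 25.3 and 30.8 FPKM, FLI1 at 11.6, 16.9, 13.2 and 15.3 FPKM, and ETS1 at 1.555, 0.94, 1.64 and 0.886 FPKM. None of 8 measured stem and progenitor factors passed either; LYL1 was at 24.7, 39.2, 34.9 and 41.1 FPKM, IKZF1 at 27.6, 20.4, 25.95 and 20.2 FPKM, and ID1 at 4.35, 3.09, 6.08 and 3.30 FPKM.

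Monocyte and macrophage factors were mostly low. Of 12 listed, 8 passed the minimum, and BHLHE40 (6.26, 19.8, 7.41 and 15.1 FPKM, limma adjusted p = 0.0224) and KLF6 (4.09, 6.28, 4.02 and 6.01 FPKM, adjusted p = 0.0423) rose with SD70. EGR1, an early factor of macrophage differentiation, was at 4.68, 2.90, 1.49 and 4.22 FPKM, lowest in MI-503.

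**Figure D4:**
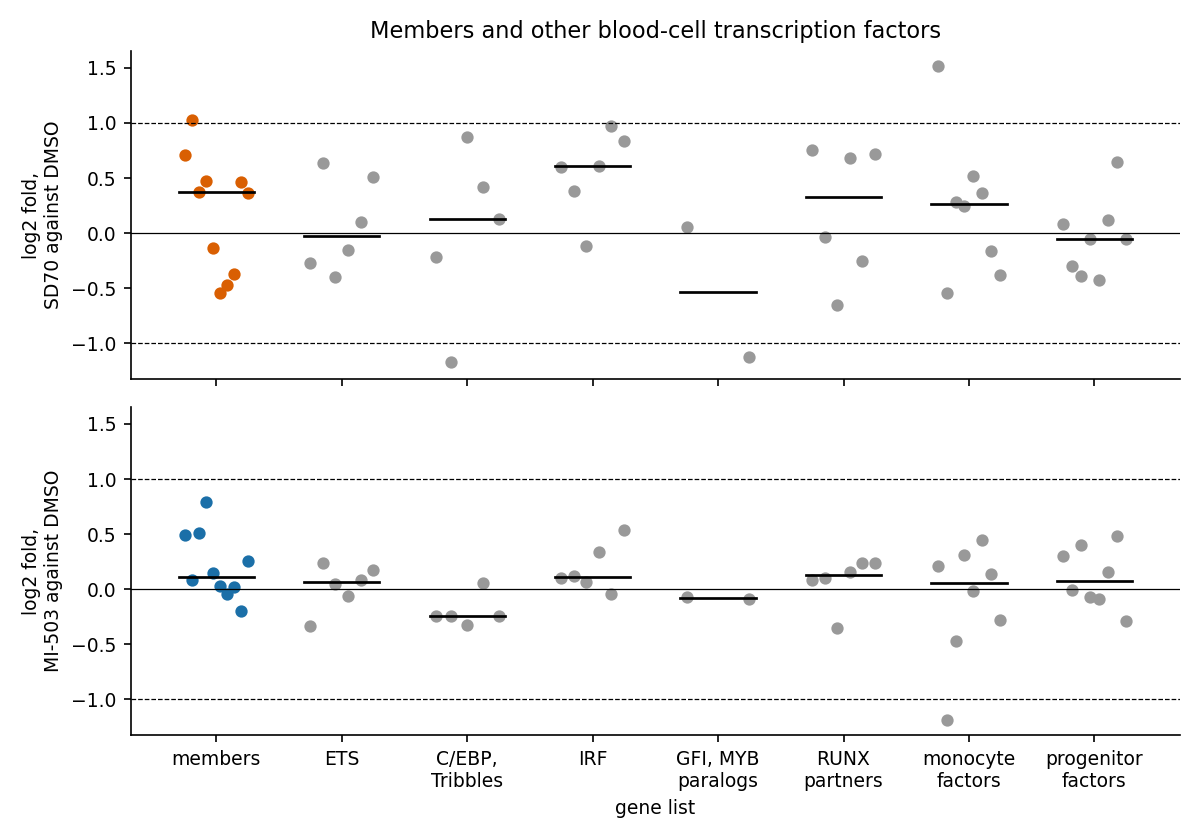
Log2 fold on log2(FPKM + 1) of each measured gene against DMSO, for SD70 (top) and MI-503 (bottom), with the 10 factors in colour and 7 lists of other blood-cell factors in grey. Black bars are medians and dashed lines mark a fold of 2; for SD70 the highest of the 10 factors is CEBPB at 1.03 and the lowest IRF8 at -0.55.

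Genes that the factors are known to bind were examined in 4 short lists, some genes standing in more than 1. The counts below stand beside 7.86% of all genes rising and 14.7% falling with SD70. These lists were chosen with earlier results of these data known, so a count above those shares is a description and no independent evidence. Of 9 measured PU.1-linked genes, 4 rose and 0 fell with SD70 in the additive fit: CSF1R, ITGAM, CSF2RA and CSF3R. CSF1R, the M-CSF receptor, was at 3.39, 17.2, 8.77 and 16.1 FPKM and ITGAM, an integrin of mature myeloid cells, at 2.43, 11.1, 5.62 and 9.25 FPKM. CSF3R, the G-CSF receptor, also on the C/EBP list, was at 23.6, 60.7, 42.2 and 59.1 FPKM (limma adjusted p = 0.0425), and CYBB, an oxidase subunit, at 1.23, 7.94, 5.42 and 7.94 FPKM. In a bulk library, fewer cells that carry an RNA and less of it per cell cannot be told apart. Of 6 measured C/EBP-linked genes, 1 rose (CSF3R) and 3 fell (ELANE, MPO and PRTN3), all 3 being genes of azurophil granule proteases or peroxidase; LYZ, lysozyme, was at 151, 237, 281 and 329 FPKM and highest in the combination. Of 6 measured MYB-linked genes, 0 rose and 4 fell (MYC, CCNB1, MPO and ELANE). MYC was at 181, 83.2, 169 and 130.0 FPKM, CCNB1, a mitotic cyclin gene, at 86.7, 36.0, 72.8 and 31.95 FPKM, and CDK6, a G1 kinase gene, was at 44.5, 19.5, 31.7 and 24.15 FPKM. Of 5 measured IRF8-linked genes, CTSS, a lysosomal protease gene, rose (20.8, 34.4, 22.1 and 31.4 FPKM, adjusted p = 0.0338) and 0 fell, while IRF8 itself was lower in both SD70 libraries. The fit for MI-503 called no gene of any kind, so its count of 0 says nothing of these lists. By fold, 2 of 9 PU.1-linked genes were at least 2-fold higher in MI-503 than in DMSO (CSF1R and CYBB, the latter also on the IRF8 list), beside 2.16% of all genes past that fold in either direction.

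Likeness to CEBPB, the only factor past a fold of 2 on log2(FPKM + 1), was measured over the 4 libraries as the distance between log2 folds to DMSO, on log2(FPKM + 1). Among 9890 other protein-coding genes the nearest were CDK18, at a distance of 0.005 (0.562, 2.19, 0.657 and 2.09 FPKM), SLC2A3, at 0.069 (6.10, 13.5, 6.19 and 13.3 FPKM), and TESK1, at 0.076 (3.13, 7.21, 3.48 and 7.49 FPKM). Each was higher in the 2 libraries with SD70. With so low a level, CDK18 has a larger ratio without the pseudocount than CEBPB.

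Overlapping genes could lend reads to some of the factors, since the strand setting of the counting is not given in the sources used here. In GENCODE, 6 of the 10 factors had a gene that overlaps them or starts within 5 kb, 18 such genes in all, and 10 of these had 0 reads in every library. A neighbour of RUNX2, SUPT3H, was at 2.53, 2.15, 1.34 and 2.33 FPKM (122, 106, 67 and 115 reads), CEBPA-DT, on the other strand just upstream of CEBPA, had 48, 57, 63 and 61 reads, and MIR6774, inside IRF8 on its strand, had 14, 14, 5 and 12 reads.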

How the data were processed

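RNA was measured in 4 libraries of MOLM13 cells, 1 per treatment label. The authors deposited 1 table per library, whose values are FPKM; this unit was read from the values, as the header names none. BWA, Bowtie and hg38 are named, without role or version, per the submitters' processing notes. All 58735 identifiers were found in GENCODE release 29 (GRCh38), and FPKM times union-exon length gave whole reads, within 0.01 of a read, for 100% of values above 0. Ratios of FPKM have exact (Clopper-Pearson) 95% intervals from those reads; PCR reads are not independent molecules.

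Folds used log2(FPKM + 1) and the genes whose mean reached 1 FPKM. The additive fit used limma 3.58.1 with a mean-variance trend, 2-sided, in R 4.3.3. Benjamini-Hochberg adjustment ran over 12296 genes with a threshold of 0.05. The fit was also run on simulated data in which only SD70 changed genes, so that run says nothing of departures from additivity. Python 3.11.15 and scipy 1.17.1 served for the rest. Alternatives changed the pseudocount, the minimum, the scaling, the trend and the fold, or ran limma-voom on the recovered reads with the library sizes that scale the FPKM or with TMM library sizes, computed by the published trimmed-mean procedure. Whether the libraries came from separate cultures, and the strand setting, are not given in the sources used here.

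The factors and lists were chosen with earlier results of these data known. Named were the 10 factors; per list, at most 3 measured genes with the largest absolute log2 fold for SD70 or MI-503 against DMSO, with CBFB and CEBPG; genes in counts of 5 or fewer; and marker genes. Motifs searched on both strands of RefSeq promoters (GRCh38.p14; 13 windows for 8 factors) were AGGAAGT (PU.1), TTGCNNAA (C/EBP), TGTGGT (RUNX), TAACNG (MYB), AAATCAC (GFI1), and 2 strings of GAAA after any 2 bases, led by GAAA (IRF) or by GGAA (ETS-IRF). They occurred in 8.24%, 10.5%, 13.1%, 20.8%, 3.14%, 3.57% and 2.82% of 35116 windows. The IRF and ETS-IRF strings can overlap each other. A match is a description of letters. Some listed genes are not reported here.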

Additional observations from a re-analysis of the deposited data

Results flagged for a closer look

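For 3 factors the ratio for MI-503 lay on opposite sides of 1 without and with SD70, by intervals that leave out 1 in both cases; with 1 library per treatment the difference was not tested. SPI1 had a ratio of 1.2 for MI-503 against DMSO and of 0.943 for the combination against SD70. CEBPA had ratios of 1.41 and 0.925 in the same pairs. RUNX2 went the other way, with 0.859 without SD70 and 1.07 with it. For RUNX2 the interval of the latter was 1.002 to 1.14, and after rescaling the libraries to 1 FPKM total the ratio was 1.03 (0.967 to 1.10), which holds 1, so its change of side was lost. SPI1 and CEBPA stayed on opposite sides of 1 after either rescaling. MYB did so only after rescaling, where its interval for MI-503 against DMSO fell below 1 and that for the combination against SD70 lay above it. The groups were too small for a search for outlying samples.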

How the results depend on the processing

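No paired analysis was possible because each treatment has 1 library, and leaving out a library would leave the additive fit with no residual degree of freedom. The count of factors at least 2-fold different was 1 for SD70 against DMSO, 0 with a pseudocount of 5 and 2 at a fold of 1.5. For MI-503 against DMSO it was 0, and 1 (CEBPE) with a pseudocount of 0.1 or a fold of 1.5. For the combination against DMSO it was 0, and 1 (CEBPB) with a pseudocount of 0.1, after rescaling to 1 FPKM total, counted with or without mitochondrially encoded genes, and 2 at a fold of 1.5. For the combination against MI-503 it was 0, and 2 at a fold of 1.5. The additive fit for SD70 called 2 factors, 0 without a filter or without the trend, 4 (with IRF8 and RUNX1) at a mean of at least 5 FPKM, and 6 (with CEBPA, IRF8, MYB and RUNX1) by limma-voom on reads with the library sizes behind the FPKM, against 3 (with CEBPA) with TMM library sizes; both sizes were chosen after the data were seen. The cause was not tested. For all genes, the count at 2-fold went from 1522 to between 462 and 2322 for SD70 against DMSO over the pseudocounts and minimums, and from 266 to between 20 and 624 for MI-503; the fit went from 2768 to 0 without the trend or a filter and to 4630 by limma-voom (4000 with TMM) for SD70, and from 0 to 1 at a mean of at least 5 FPKM and 8 by limma-voom (0 with TMM) for MI-503. At 2-fold the combination went from 1074 to between 266 and 1805 against DMSO, from 221 to between 14 and 562 against SD70, and from 539 to between 79 and 973 against MI-503. Of 200 refitted log2 folds of factors, 155 moved by less than the log2 distance from the centre of the counting interval to its end. All 30 refitted departures did so too. Either rescaling moved an interval across 1 for GFI1 (SD70 and the combination against DMSO), MYB (MI-503 against DMSO), RUNX2 (the combination against SD70), and SPI1 and CEBPD (the combination against MI-503). RUNX1 under MI-503 was the gene whose side of 0 changed with scaling, at 0.02 and -0.01 against DMSO. The departure of RUNX1 changed side too, from 0.009 to -0.016 at the same FPKM total. CEBPE, with 32 to 75 reads, is the factor limited by depth.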
